A study of Mus musculus with 16 samples.

Results

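Genes of TGF-beta and BMP signalling, 47 in all, were followed across 3 histone marks in young and aged hematopoietic stem cells (HSCs). They were chosen by name, from their known place in the pathway, and comprise 23 ligands, 12 receptors, 8 SMADs and 4 secreted antagonists. All 47 were found by symbol among the 21851 protein-coding genes of the GENCODE M21 basic annotation. A gene was counted as carrying a mark at its promoter when a peak overlapped the window of 1 kb on either side of any of its protein-coding start sites by at least 1 bp.

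The study profiled the chromatin of HSCs from mouse bone marrow by chromatin immunoprecipitation sequencing (ChIP-seq), asking how the epigenome of these cells differs between young and old animals. Young cells came from C57BL/6 mice of 10 weeks and aged cells from C57BL/6 mice of 20 months, with no allele or agent added to either group. The methods describe female mice, marrow pooled over animals before sorting, and digestion of the cross-linked chromatin with micrococcal nuclease. In both groups HSCs were sorted by surface markers: they were Sca-1+, CD150+ and c-kit+, and Lin-, CD48-, CD34-, IL-7- and Flt3-. Each mark and age had 2 libraries, and each age had 2 input libraries. H3K4me3, H3K27me3 and H2AK119ub1 were each available here as 1 pooled peak list per age, hence 6 lists. There are therefore no replicate values, no difference between the ages could be tested, and pooled cells cannot show whether 2 marks at a promoter sat in the same cell.

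In this pathway a dimeric ligand brings together type II and type I receptor kinases, the type I receptor phosphorylates receptor-regulated SMADs, and these enter the nucleus with the common partner Smad4. Secreted antagonists bind the ligands outside the cell, and the inhibitory SMADs block the signal inside it. TGF-beta from the bone marrow niche is known for holding HSCs in quiescence. H3K4me3 lies at the promoters of active or poised genes. H3K27me3 is set by PRC2 and H2AK119ub1 by PRC1, the Polycomb complexes that keep developmental genes silent.

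The lists differed in length in ways that touch every count below. H3K4me3 had 11371 peaks in young and 6723 in aged HSCs, H3K27me3 had 63142 and 20419, and H2AK119ub1 had 2593 and 17768. Median widths ran from 270 to 397 bp, and median fold enrichment, the pileup at a peak over its local background, from 3.1 to 4.2. The H3K4me3 lists are shallow: the fold and p-value of each peak give back a median of 20 reads at the young and 19 at the aged summits. Read depth is not recorded for the broad lists, and the names of their peaks carry a single library number, so it is not certain that both libraries entered them. A gene missing from a list is thus one without a called peak at that depth, not one shown to lack the mark. As a check of the cell type, 7 of 10 HSC and progenitor genes had H3K4me3 at the promoter in each list. None of the T cell, B cell, myeloid or non-blood markers, 3 of each, did so at either age.

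The sequences below show the promoters on which the marks were found at both ages: for each mark, the members with the highest and the lowest CpG ratio among those with a usable entry in the RefSeq promoter table. The CpG ratio is the observed count of CpG over that expected from the content of C and G. An entry was found for 33 of the 47 members. Of these, 4 of the 12 with H3K27me3 and 3 of the 5 with H3K4me3 at both ages had an entry that starts at an annotated start site and whose upstream bases lie in no annotated exon. The 150 bases upstream of the start site are given on the coding strand in GRCm38.p6, with every CpG in capitals. They lie at chr14:33923437-33923586 for Gdf10, chr10:61417822-61417971 for Nodal, chr9:64022060-64022209 for Smad6 and chr9:63757995-63758144 for Smad3, the SMAD genes on the minus strand and the ligand genes on the plus strand.
Gdf10: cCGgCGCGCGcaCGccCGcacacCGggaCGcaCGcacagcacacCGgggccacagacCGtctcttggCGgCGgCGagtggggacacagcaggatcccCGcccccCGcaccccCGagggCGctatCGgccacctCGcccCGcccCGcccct
Nodal: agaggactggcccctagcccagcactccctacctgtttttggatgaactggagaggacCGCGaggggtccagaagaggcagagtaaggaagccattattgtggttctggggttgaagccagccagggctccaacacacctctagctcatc
Smad6: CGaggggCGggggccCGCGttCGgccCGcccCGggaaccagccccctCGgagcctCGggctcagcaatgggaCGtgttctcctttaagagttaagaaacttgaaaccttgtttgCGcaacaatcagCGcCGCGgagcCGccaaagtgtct
Smad3: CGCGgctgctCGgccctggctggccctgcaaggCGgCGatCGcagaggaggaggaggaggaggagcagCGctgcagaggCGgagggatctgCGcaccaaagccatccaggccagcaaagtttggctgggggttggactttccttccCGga
The Gdf10 sequence held 22 CpG and the Nodal sequence 2, at promoter CpG ratios of 0.637 and 0.512. Smad6 and Smad3 held 15 and 10, at ratios of 0.786 and 0.743. All 150 Nodal bases were inside a young H3K27me3 peak, 4 of the Gdf10 bases were, and none of the Smad6 or Smad3 bases were inside a peak of any list.

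For Gdf10 and Smad6 a stretch that a young and an aged peak had in common lay farther upstream, in no annotated exon, and is shown as an example of DNA called at both ages. At Gdf10 young and aged H3K27me3 peaks also overlapped downstream of the start, over coding exon, and that stretch is not shown. In mm10 these stretches are chr14:33922639-33922917 for H3K27me3 at Gdf10 and chr9:64022544-64022782 for H3K4me3 at Smad6, again on the coding strand with CpG in capitals.
Gdf10: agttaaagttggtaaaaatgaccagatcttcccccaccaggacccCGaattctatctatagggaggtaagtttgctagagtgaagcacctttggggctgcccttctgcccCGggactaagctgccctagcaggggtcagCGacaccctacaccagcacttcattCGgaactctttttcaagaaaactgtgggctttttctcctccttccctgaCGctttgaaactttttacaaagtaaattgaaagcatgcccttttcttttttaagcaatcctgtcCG
Smad6: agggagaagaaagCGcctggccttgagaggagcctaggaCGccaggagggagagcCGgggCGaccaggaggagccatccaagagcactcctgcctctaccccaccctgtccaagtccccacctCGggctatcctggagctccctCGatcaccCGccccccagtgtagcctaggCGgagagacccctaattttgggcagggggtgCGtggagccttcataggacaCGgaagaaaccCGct
They ran from -948 to -670 bp and from -723 to -485 bp relative to the start site. Their own CpG ratios were 0.399 and 0.449, below the ratio of the whole promoter window in both genes.

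Ligands and antagonists made up most of the H3K27me3 promoters, whereas SMADs and receptors made up most of the H3K4me3 promoters. H3K27me3 lay at 22 of the 47 promoters in young HSCs, or 46.8%, against 16% of all protein-coding genes, and at 12 in aged HSCs, or 25.5%, against 8.24%. H3K4me3 lay at 17 promoters in young HSCs (36.2%; 33.8% of all genes) and at 9 in aged HSCs (19.1%; 23.3% of all genes), shares close to the background. H2AK119ub1 lay at 2 promoters in the young list (4.26%; 1.91% of all genes) and at 18 in the aged list (38.3%; 14% of all genes). By role, young H3K27me3 was found at 14 of 23 ligands, 3 of 12 receptors, 1 of 8 SMADs and 4 of 4 antagonists, and young H3K4me3 at 4, 6, 6 and 1 of them. In the aged lists H3K27me3 was found at 6 ligands, 2 receptors, no SMAD and 4 antagonists, H3K4me3 at 1, 3, 5 and 0, and H2AK119ub1 at 7, 4, 4 and 3.

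**Figure D1:**
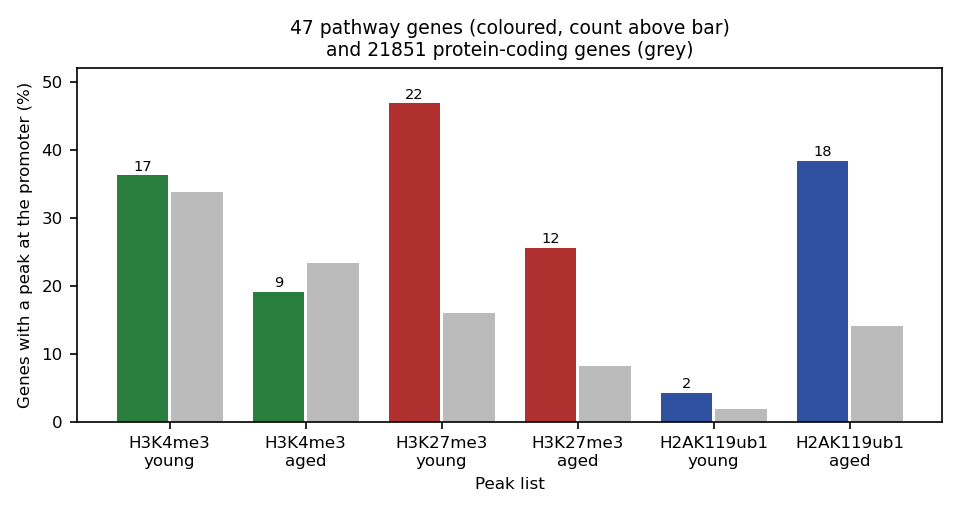
Share of genes with a peak at the promoter (y axis, percent) in each of the 6 peak lists (x axis), for the 47 pathway genes in colour with their count above the bar and for the 21851 protein-coding genes in grey. The coloured bars stand above the grey ones for H3K27me3 and H2AK119ub1 at both ages, and near them for H3K4me3.

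The 2 lists of a mark differ in length, and a count of members can move with it. When both lists of a mark were limited to the same number of peaks, the highest ranked by p-value, H3K4me3 was found at 9 member promoters in young and 9 in aged HSCs, beside 23.4% and 23.3% of all genes. H2AK119ub1 was then found at 2 and 2, Acvrl1 and Gdf7 in young and Gdf6 and Smad9 in aged HSCs, beside 1.91% and 2.92% of all genes. H3K27me3 was found at 18 in young and 12 in aged HSCs, beside 11.2% and 8.24%. This limit by its construction brings the counts of a mark closer together, and the part of list length in the differences described below was not tested.

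Of all genes, 17.5% had H3K4me3 at the promoter at both ages, 16.3% in the young list alone and 5.78% in the aged list alone; among members these were 5, 12 and 4. For H3K27me3 the shares over all genes were 7.83%, 8.22% and 0.412%, and the member counts 12, 10 and 0. For H2AK119ub1 they were 1.5%, 0.412% and 12.5%, and the member counts 2, 0 and 16. Over promoter and gene body together, H3K4me3 was found at 21 members in young and 12 in aged HSCs (36.5% and 25.5% of all genes), H3K27me3 at 22 and 15 (22.2% and 13.3%) and H2AK119ub1 at 5 and 27 (4.58% and 23.7%).

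**Figure D2:**
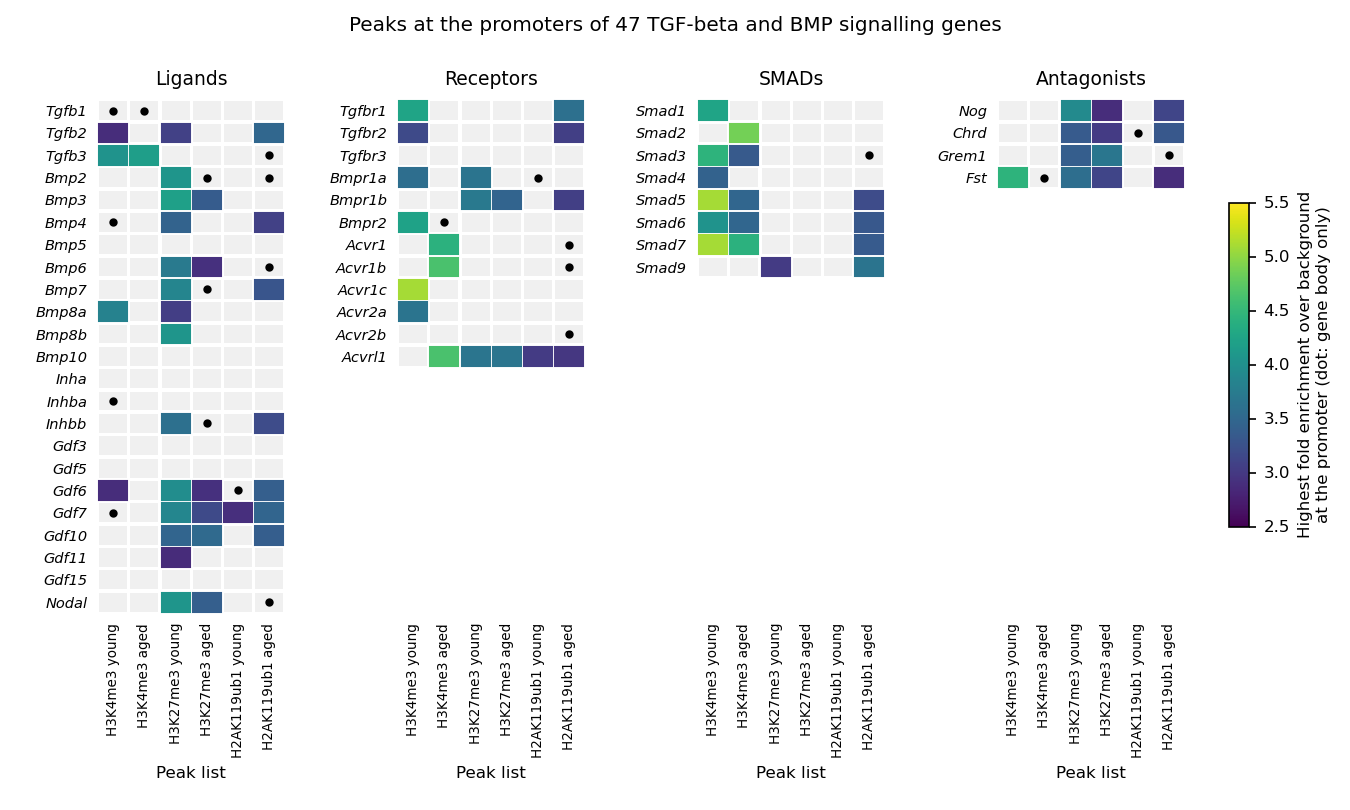
Promoter status of the 47 genes (rows, by role) in the 6 peak lists (columns) with the highest fold enrichment over background among the peaks at the promoter in colour, a grey cell for no peak there and a black dot for a peak over the gene body only. H3K27me3 cells lie mostly with ligands and antagonists, and H3K4me3 cells mostly with receptors and SMADs.

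Among the TGF-beta ligands, Tgfb1, the isoform most studied in blood, had no peak within 1 kb of its start in any list. Its H3K4me3 peaks lay in an intron, from 1227 bp of the start in young HSCs (5.04-fold) and from 1682 bp in aged HSCs (3.98-fold). Tgfb2 carried young H3K4me3 at chr1:186705604-186706008, a peak of 405 bp over the 5' untranslated exon and the bases before it (2.88-fold, −log10 q 2.36). Here q is the false discovery rate that the peak caller gave the peak, on a negative log scale, so that higher values are more significant. A young H3K27me3 peak of 780 bp at chr1:186705411-186706190 (3.08-fold, −log10 q 2.2) spanned it. In the aged lists Tgfb2 had neither mark and an H2AK119ub1 peak of 320 bp upstream of the gene, chr1:186706438-186706757 (3.49-fold, −log10 q 2.11). Tgfb3 alone among the 23 ligands had H3K4me3 at the promoter at both ages, with 2 peaks on each list within 1 kb. Their folds were 4.04 and 3.03 in young and 4.17 and 2.69 in aged HSCs.

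BMP ligands, first known for bone formation and for patterning of the embryo, carried H3K27me3 in the young list at 7 of 9 promoters, Bmp5 and Bmp10 being without a peak in any list. Bmp3 and Bmp6 had it at both ages. Bmp3 had 2 young promoter peaks of 579 bp (4.19-fold) and 4024 bp (3.51-fold) and 2 aged ones of 1525 bp (3.36-fold) and 778 bp (3.14-fold). Bmp6, a regulator of hepcidin and iron, had young promoter peaks of 1109 bp (3.72-fold) and 3043 bp (3.67-fold) and in the aged list a single one of 303 bp (2.92-fold) that ended 791 bp before the start.

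The other 5 BMP ligands had promoter H3K27me3 in the young list alone. At Bmp2 it was a peak of 2381 bp over coding and untranslated exons, chr2:133552416-133554796 (4.07-fold, −log10 q 4.12). The aged list held Bmp2 peaks of 615 and 451 bp in an intron, the nearer from 1494 bp of the start. Bmp4 had a young peak of 1182 bp across its start, chr14:46389525-46390706 (3.44-fold, −log10 q 2.94), and no aged H3K27me3 over promoter or gene body. Bmp7, needed for kidney and eye development, had young promoter peaks of 1831 bp at chr2:172937900-172939730 (3.87-fold, −log10 q 3.65) and 200 bp at chr2:172940293-172940492 (3.18-fold, −log10 q 2.01). Its aged H3K27me3 peaks of 677 and 591 bp lay in an intron, the nearer from 1697 bp of the start.

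Bmp8b carried a young peak of 830 bp up to its start, chr4:123104380-123105209 (4.06-fold, −log10 q 4.19), and its close relative on the same chromosome, Bmp8a, small ones of 231 bp at chr4:123342208-123342438 (3.04-fold, −log10 q 1.8) and 210 bp at chr4:123343584-123343793 (2.99-fold, −log10 q 1.7). The Bmp8a promoter also had young H3K4me3, 377 bp at chr4:123343234-123343610 (3.83-fold, −log10 q 3.67). Both genes were without a peak of any mark over promoter or gene body in the aged lists. With promoters of 2 kb, an aged H3K27me3 peak was counted at Bmp8b. Reads that match both of these paralogs could have been placed at either, so their calls are less certain.

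Aged H2AK119ub1 was found at the promoters of 2 BMP ligands, in the same windows that had young H3K27me3. Bmp4 had a peak of 416 bp at chr14:46389557-46389972 (3.08-fold, −log10 q 1.36), all of it inside the bases of the young H3K27me3 peak. Bmp7 had one of 466 bp at chr2:172939249-172939714 (3.29-fold, −log10 q 1.72). At Bmp2 and Bmp6 aged H2AK119ub1 lay farther into the gene, from 4672 bp and 1768 bp of the start.

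Of the growth and differentiation factors, Gdf6, Gdf7 and Gdf10 had promoter H3K27me3 at both ages, and Gdf11 in the young list only. Gdf6, a BMP-type ligand of joint and eye development, had the widest member peak of any list, 8669 bp of young H3K27me3 at chr4:9844448-9853116 (3.96-fold, −log10 q 4.39). In the aged list the same stretch held 8 peaks of 270 to 1143 bp, of which 1 was at the promoter, chr4:9844807-9845279 (2.92-fold, −log10 q 1.37). Gdf6 also had young H3K4me3 in the first kilobase of the gene, chr4:9845056-9845292 (2.88-fold, −log10 q 2.36). Its aged H2AK119ub1 peaks at the promoter measured 1020 bp at chr4:9842723-9843742 (3.29-fold, −log10 q 1.85) and 1142 bp at chr4:9844255-9845396 (3.4-fold, −log10 q 2.47).

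Gdf7 and Acvrl1 alone had H2AK119ub1 at the promoter at both ages. Gdf7, a BMP-type ligand of the roof plate of the spinal cord, had a young H2AK119ub1 peak of 431 bp (2.91-fold) and aged ones of 2246 bp (3.47-fold) and 1345 bp (3.43-fold). The wider of these ranked first in width among the 69 aged H2AK119ub1 peaks over the members. Young H3K27me3 at Gdf7 comprised promoter peaks of 3072 bp (3.88-fold) and 2355 bp (3.52-fold), and the aged list had 1214 bp (3.17-fold) and 791 bp (3.13-fold) there. Gdf10 had aged H2AK119ub1 of 278 bp at chr14:33924137-33924414 (3.39-fold, −log10 q 1.85), inside an aged H3K27me3 peak of 1087 bp. At Gdf11, a close relative of myostatin, the young H3K27me3 peak of 946 bp lay upstream, chr10:128892275-128893220 (2.87-fold, −log10 q 1.96).

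Nodal, which sets the left-right axis of the embryo, had promoter H3K27me3 at both ages, 3545 bp (4.07-fold) and 936 bp (2.86-fold) in young and 1607 bp (3.04-fold) and 200 bp (3.4-fold) in aged HSCs. The 200 bp peak overlapped the promoter window by only its last bases, from -1191 to -992 bp. Inhbb, which encodes the activin beta B subunit, had promoter H3K27me3 in the young list alone, 311 bp at chr1:119421769-119422079 (3.39-fold, −log10 q 2.46) and 1674 bp at chr1:119422807-119424480 (3.6-fold, −log10 q 3.13). The aged list held 526 bp of H3K27me3 in an intron of Inhbb, from 2011 bp of the start. Aged H2AK119ub1 of 304 bp lay between these intervals and partly over the second, chr1:119422634-119422937 (3.18-fold, −log10 q 1.56). No promoter peak was listed for Inha and Inhba, the inhibin alpha and activin beta A subunits, or for Gdf3, Gdf5 and Gdf15.

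Receptors divided by mark. The TGF-beta receptors Tgfbr1 and Tgfbr2, the type I and type II kinases, had H3K4me3 in young and H2AK119ub1 in aged HSCs. At Tgfbr1 the young H3K4me3 peak of 532 bp lay upstream of the gene, chr4:47352443-47352974 (4.25-fold, −log10 q 4.78), with 19 reads at the summit. Its aged H2AK119ub1 peak of 243 bp lay in an intron, chr4:47353945-47354187 (3.59-fold, −log10 q 2.25). At Tgfbr2 the young H3K4me3 peak of 399 bp reached 3 bp past the start site, chr9:116175357-116175755 (3.17-fold, −log10 q 3.23), and the aged H2AK119ub1 peak of 256 bp lay in an intron, chr9:116174318-116174573 (3.06-fold, −log10 q 1.34). Tgfbr3, the co-receptor betaglycan, had no peak in any list.

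Among BMP receptors, Bmpr2, the type II kinase, had young H3K4me3 of 296 bp upstream of the gene, chr1:59762985-59763280 (4.23-fold, −log10 q 4.96). Its aged H3K4me3 peak of 302 bp overlapped coding and untranslated exons from 1239 bp of the start (4.11-fold) and was therefore not counted at the promoter. Bmpr1a, a type I kinase, had young H3K4me3 of 208 bp at chr14:34503001-34503208 (3.57-fold, −log10 q 3.29). Young H3K27me3 flanked it on both sides, 2957 bp at chr14:34498782-34501738 (3.66-fold, −log10 q 3.62) and 1232 bp at chr14:34503269-34504500 (3.29-fold, −log10 q 2.77). A young H2AK119ub1 peak of 529 bp lay in an intron (3.1-fold). With the start sites used here no aged list held a peak over the Bmpr1a promoter or gene body, but with those of the comprehensive annotation, or with promoters of 2 kb, an aged H2AK119ub1 peak was counted at the promoter. Bmpr1b, the other BMP type I kinase of the list, had H3K27me3 at both ages (3.71-fold and 3.45-fold at the highest promoter peak) and aged H2AK119ub1 of 417 bp at chr3:142169782-142170198 (3.06-fold, −log10 q 1.48).

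The 3 receptors with promoter H3K4me3 in the aged list were Acvr1, Acvr1b and Acvrl1, and none of them had it in the young list. Acvr1, the type I kinase mutated in fibrodysplasia ossificans progressiva, had aged H3K4me3 of 202 bp in an intron, chr2:58566493-58566694 (4.42-fold, −log10 q 4.71). A promoter of another gene, Upp2, is close to one of its start sites. Acvr1b, the activin type I kinase, had aged H3K4me3 of 269 bp upstream of the gene, chr15:101173554-101173822 (4.64-fold, −log10 q 5.27). Acvr1c and Acvr2a had it in the young list only, 402 bp in an intron at chr2:58357104-58357505 (5.1-fold, −log10 q 7.16) and 319 bp upstream at chr2:48813319-48813637 (3.66-fold, −log10 q 3.64). Acvr2b had no promoter peak and 2 aged H2AK119ub1 peaks in introns. The summits of these 4 H3K4me3 peaks held 18 to 23 reads.

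Acvrl1, the type I kinase ALK1 of endothelial cells, carried all 3 marks at its promoter. Its aged H3K4me3 peak of 418 bp was at chr15:101128701-101129118 (4.64-fold, −log10 q 5.27), over untranslated exon. Aged H3K27me3 peaks of 941 bp (3.12-fold) and 311 bp (3.67-fold) and young ones of 716 bp (3.3-fold) and 1869 bp (3.67-fold) lay at the same promoter. The young H2AK119ub1 peak of 430 bp (3.02-fold) lay at one of its internal start sites, and the aged one of 446 bp (2.98-fold) began 617 bp downstream of another. With the 5'-most start site of each gene alone, neither H2AK119ub1 peak counted at Acvrl1.

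SMADs were 4 of the 5 members with promoter H3K4me3 at both ages. Smad3, which carries the TGF-beta and activin signal, Smad5, which carries the BMP signal, and the inhibitory Smad6 and Smad7 had it at both ages. At Smad3 the promoter peaks measured 376 bp (4.44-fold, 21 reads at the summit) in young and 204 bp (3.34-fold, 15 reads) in aged HSCs. Smad5 had 214 bp (5.1-fold, 23 reads) and 285 bp (3.48-fold, 19 reads), both downstream of the start. Smad6 had 521 bp (4.04-fold, 18 reads) and 239 bp (3.48-fold, 19 reads). Smad7 had 2 young promoter peaks of 911 bp (5.1-fold) and 456 bp (4.04-fold) and 3 aged ones of 225, 340 and 246 bp (4.42-fold, 2.96-fold and 3.32-fold). In each of Smad3, Smad5 and Smad6 the promoter peak in the aged list had the lower fold, but with 15 to 23 reads at a summit and no replicates the difference has no error estimate.

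The remaining SMADs were listed at 1 age. Smad1, a BMP SMAD, had young H3K4me3 of 200 bp in an intron, chr8:79398375-79398574 (4.25-fold, −log10 q 4.78), which reached into the promoter window by the bases from 944 bp of the start. Smad4, the common partner, had young H3K4me3 of 217 bp upstream of the gene, chr18:73704131-73704347 (3.43-fold, −log10 q 2.85, 16 reads). Smad2, the other SMAD of TGF-beta and activin, had aged H3K4me3 of 417 bp in an intron, chr18:76242275-76242691 (4.86-fold, −log10 q 5.83, 21 reads). Smad9, the third BMP SMAD, alone among SMADs had H3K27me3, a young peak of 2159 bp in an intron, chr3:54756191-54758349 (3.02-fold, −log10 q 1.9).

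Aged H2AK119ub1 was found at 4 SMAD promoters. Smad9 had a peak of 558 bp at chr3:54755748-54756305 (3.66-fold, −log10 q 2.75), overlapping the bases of the young H3K27me3 peak. Smad5 had 200 bp at chr13:56704095-56704294 (3.19-fold, −log10 q 1.6) and Smad6 249 bp at chr9:64021212-64021460 (3.31-fold, −log10 q 1.83), both at promoters with H3K4me3 at both ages and no H3K27me3. Smad7 had 256 bp at chr18:75366669-75366924 (2.99-fold, −log10 q 1.18) and 269 bp at chr18:75369499-75369767 (3.35-fold, −log10 q 1.81), the first overlapping the aged H3K4me3 peak at chr18:75366855-75367079. None of the 8 SMADs had young H2AK119ub1 over promoter or gene body, and 5 had the aged mark there.

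All 4 antagonists had promoter H3K27me3 at both ages, with aged calls that depend on the settings. Aged peaks covered 84 bp of the Nog and 153 bp of the Chrd promoter window, and both calls ended with an overlap of 200 bp or a promoter of 500 bp. With peaks under a −log10 q of 2 left out, only Grem1 of the 4 kept the aged mark at the promoter. Nog (noggin) and Chrd (chordin) bind BMPs, as does Grem1 (gremlin), and Fst (follistatin) binds activins. Nog had young promoter peaks of 3254 bp (3.92-fold), 475 bp (3.02-fold) and 1258 bp (3.13-fold) and an aged one of 428 bp (2.88-fold). Chrd had young promoter peaks of 284, 523 and 1000 bp and an aged one of 366 bp (3.02-fold), in a window close to the promoter of Thpo, the gene of thrombopoietin. Grem1 had 2572 bp (3.39-fold) and 533 bp (3.09-fold) in young and 3 peaks of 200 to 529 bp in aged HSCs. Fst had 4299 bp (3.32-fold) and 2880 bp (3.57-fold) in young and 426 bp (2.82-fold) and 421 bp (3.12-fold) in aged HSCs.

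Aged H2AK119ub1 was at the promoters of Nog, Chrd and Fst, and at Grem1 it was in an intron from 1039 bp of the start. At Nog the peak measured 1337 bp, chr11:89300504-89301840 (3.12-fold, −log10 q 1.65), and contained the whole aged H3K27me3 peak. Chrd had 545 bp at chr16:20732221-20732765 (3.09-fold, −log10 q 1.39) and 408 bp at chr16:20733956-20734363 (3.31-fold, −log10 q 1.73). Fst had 272 bp at chr13:114459176-114459447 (2.88-fold, −log10 q 1.18), a narrow peak of low significance. Fst was the only antagonist with H3K4me3, in the young list, at chr13:114457103-114457730 (628 bp, 4.44-fold, −log10 q 5.52) and chr13:114459521-114459843 (323 bp, 4.25-fold, −log10 q 4.78). The aged list had a Fst H3K4me3 peak of 232 bp from 1361 bp of the nearest start (5.06-fold).

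H3K4me3 and H3K27me3 occurred together at 5 young promoters, Tgfb2, Gdf6, Fst, Bmp8a and Bmpr1a, or 10.6% of members beside 2.96% of all genes. In the aged lists they did so at 1 promoter, Acvrl1, or 2.13% beside 0.792%. Members carried H3K27me3 more often than all genes did. Among promoters with young H3K27me3, 22.7% of the members also had H3K4me3, beside 18.4% of all genes. With aged H3K27me3 these shares were 8.33% and 9.61%. The peaks themselves coincided at 3 of the young promoters: all 405 bp of H3K4me3 at Tgfb2, all 237 bp at Gdf6, and all 628 and 323 bp of the Fst peaks lay inside H3K27me3 peaks. At Bmp8a 27 of 377 bp did, and at Bmpr1a none, the nearest H3K27me3 peak starting after a gap of 60 bp. At Acvrl1 in aged HSCs 310 of 418 bp were shared. Over promoters and gene bodies of all members, 20% of young H3K4me3 bases were inside young H3K27me3, beside 4.5% over all genes. With the lists of each mark held to the same number of peaks at both ages, 1 of these 5 young promoters, Fst, kept both marks.

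H3K27me3 and H2AK119ub1 were both at 2 young promoters, Acvrl1 and Gdf7 (1.65% of all genes), and at 8 aged promoters, Acvrl1, Bmpr1b, Chrd, Fst, Gdf10, Gdf6, Gdf7 and Nog (4.99% of all genes). The 8 were 66.7% of the 12 members with aged H3K27me3, beside 60.6% among all genes with it. Aged H2AK119ub1 was found without aged H3K27me3 at 10 promoters, or 21.3%, beside 9% of all genes: Bmp4, Bmp7, Inhbb, Smad5, Smad6, Smad7, Smad9, Tgfb2, Tgfbr1 and Tgfbr2. Of these, Bmp4, Bmp7, Inhbb, Smad9 and Tgfb2 had H3K27me3 in the young list. They were 5 of the 10 members with young-only promoter H3K27me3, or 50%, where the share over all genes of that kind was 36.1%.

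**Figure D3:**
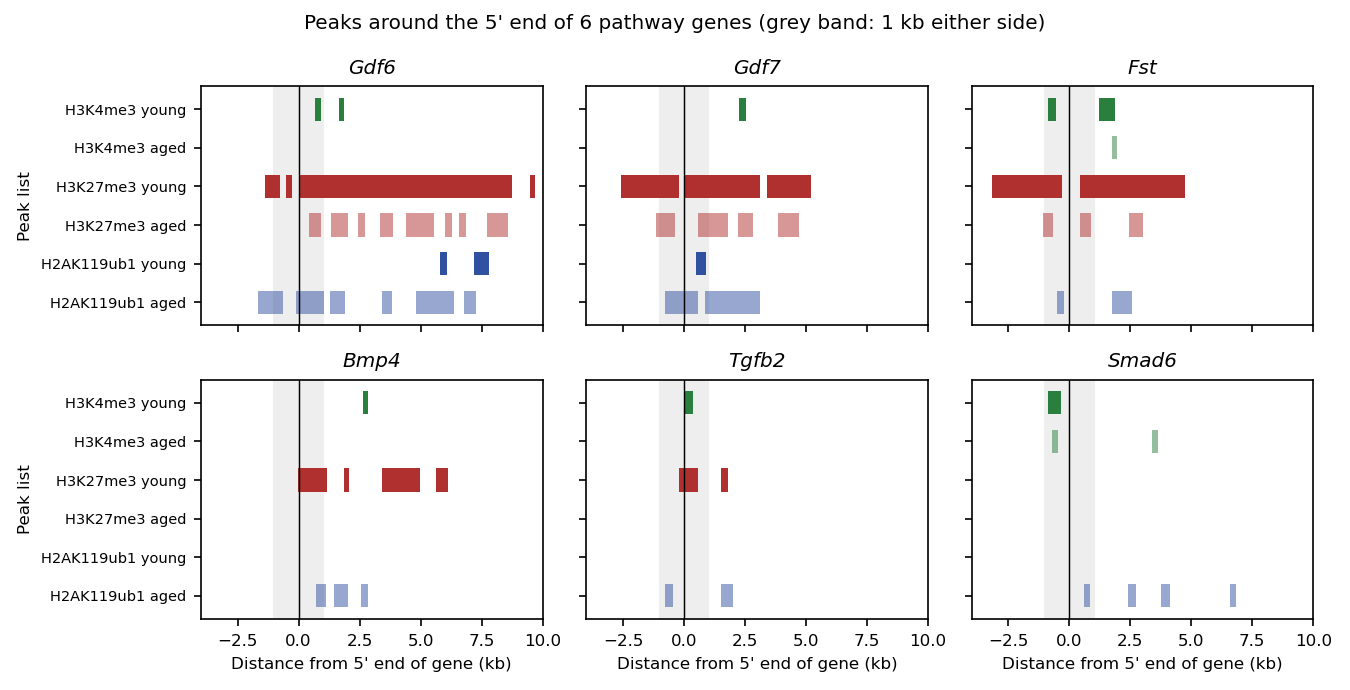
Peaks of the 6 lists (rows) over promoter or gene body of 6 pathway genes, by distance from the 5' end of the gene in kb. Full colour stands for young and pale colour for aged peaks, with a grey band of 1 kb on either side of that end. Peaks outside the promoter windows and gene body were not drawn, so blank space there does not show that a peak is absent. Young H3K27me3 at Gdf6, Gdf7 and Fst forms long blocks where the aged list has short separate peaks. Bmp4 and Tgfb2 have no aged H3K27me3 over promoter or gene body but have aged H2AK119ub1 there.

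The 22 members with young H3K27me3 were all covered over fewer bases in the aged list. The whole H3K27me3 lists covered 41 Mb in young and 10 Mb in aged HSCs. How many of all genes were covered over fewer bases was not counted. Over promoters and gene bodies of the 47 genes, young H3K27me3 peaks covered 91.1 kb, or 3.54% of that sequence, and aged peaks 28.4 kb, or 1.1%, beside 1.92% and 0.472% over all genes. Their median fold was 3.31 in young and 3.14 in aged HSCs, and their median width 757.5 and 459 bp. Gdf6, Bmp6, Bmp3, Gdf10 and Bmpr1a held the most, 13.5, 10.2, 9.36, 6.75 and 5.36 kb in young and 4.6, 4.72, 2.72, 2.43 and 0 kb in aged HSCs. These 5 genes made up 49.6% of the young length. By share of the gene rather than length, Gdf7 (89.4%), Nog (73.2%), Gdf6 (71.1%) and Fst (65.1%) were covered most in young HSCs, and 52.8%, 15.9%, 24.2% and 17.3% of them in aged HSCs. Both figures depend on how much of the genome each list called.

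**Figure D4:**
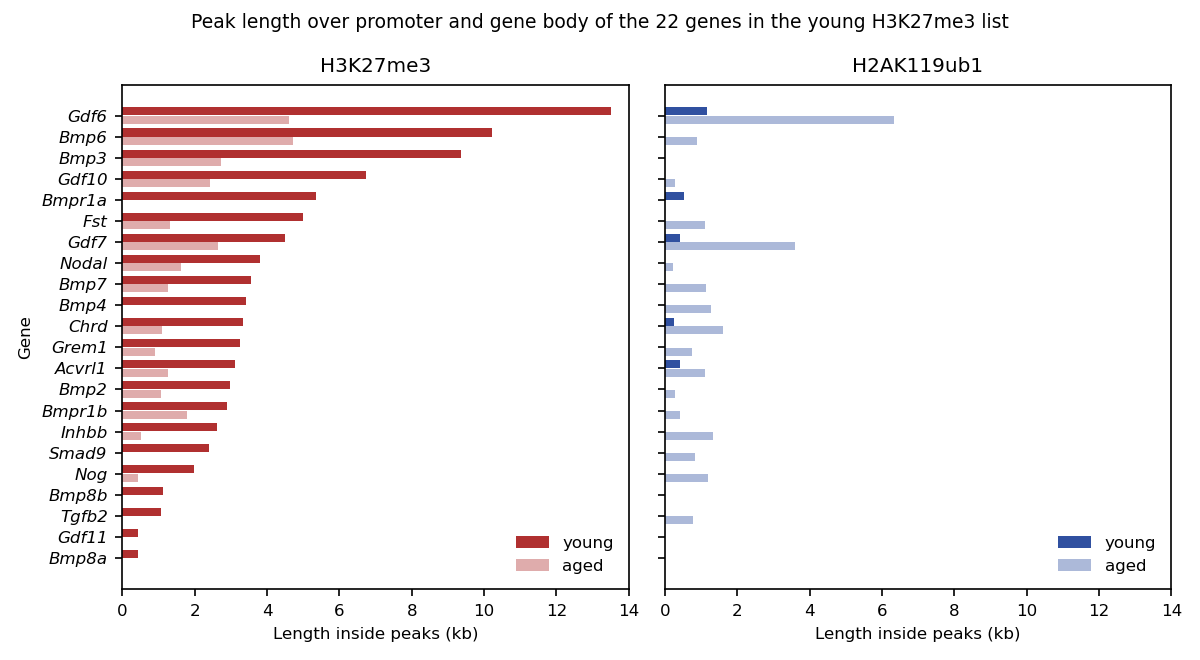
Length inside peaks (x axis, kb) over promoter and gene body for the 22 genes in the young H3K27me3 list (y axis), for H3K27me3 on the left and H2AK119ub1 on the right, with full bars for young and pale bars for aged HSCs. Every pale H3K27me3 bar is shorter than the full bar beside it, and Bmpr1a is the only gene with a longer full bar for H2AK119ub1.

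Aged H3K27me3 lay largely within young H3K27me3. Of the 28.4 kb in the aged list, 78.4% lay inside young peaks, beside 69.4% over all genes, and 24.4% of the young bases were inside aged peaks, beside 17%. All 12 members with aged promoter H3K27me3 also had it in the young list, as did 95% of all such genes. H2AK119ub1 covered 2.8 kb of the members in the young and 29.9 kb in the aged list, at a median fold of 3.07 and 3.25. These lengths were 0.109% and 1.16% of the member sequence, beside 0.0509% and 0.441% over all genes. H2AK119ub1 was longer in the aged list at 27 members and longer in the young list at 1, Bmpr1a. The aged list held 17768 peaks against 2593, and the same count over all genes was not made. Of the aged H2AK119ub1 bases, 57.9% lay inside young and 24.7% inside aged H3K27me3 peaks, beside 46.9% and 22.7% over all genes. For H3K4me3, 34.6% of the aged bases lay inside young peaks, beside 41.8%.

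The promoters of the members were richer in CpG than those of all genes, with a median ratio of 0.669 against 0.46, and 30 of 47 were above 0.6 against 6752 of 21851. Members with H3K4me3 at both ages had a median of 0.759, those with H3K27me3 in the young list only 0.687, and those with H3K27me3 at both ages 0.599. At 10 promoters no list had a mark, or 21.3%, beside 45% of all genes, and their median was 0.378: Acvr2b, Bmp10, Bmp5, Gdf15, Gdf3, Gdf5, Inha, Inhba, Tgfb1 and Tgfbr3. Of these 7 had no peak over the gene body either (14.9%; 37.1% of all genes), the exceptions being Tgfb1, Inhba and Acvr2b. Among all genes in the same states the medians were 0.617, 0.467, 0.534 and 0.219, so the CpG ratio of unmarked promoters was low in the members as it was over all genes. The part of CpG content in the shares of marked members was not tested.

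**Figure D5:**
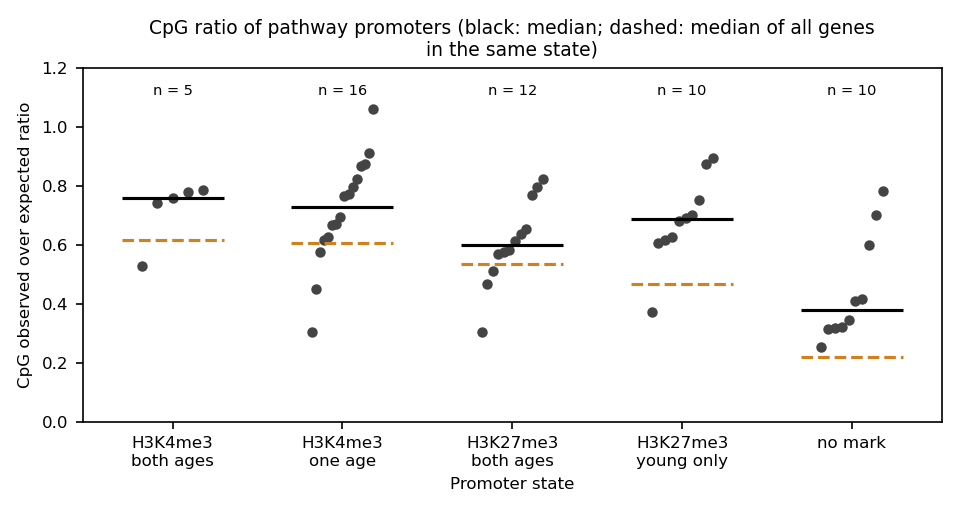
CpG observed over expected ratio of the promoter windows (y axis) of members by promoter state (x axis), with 1 point per gene, a black line at the median of the members and a dashed line at the median of all genes in that state; a gene may stand in an H3K4me3 and an H3K27me3 column. Members without a mark have the lowest median, 0.378, and their points run from 0.255 to 0.784.

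Beyond these members, 49 other genes of the pathway were listed and 48 of them were found in the annotation. H3K27me3 was at 17 of their promoters in young and 8 in aged HSCs, or 35.4% and 16.7%, beside 16% and 8.24% of all genes. H2AK119ub1 was at 4 and 16, or 8.33% and 33.3%, beside 1.91% and 14%. H3K4me3 was at 12 and 11, or 25% and 22.9%, beside 33.8% and 23.3%, and so not above the share of all genes. Among the extracellular antagonists named in that list, Chrdl2, Bmper and Nbl1 had H3K27me3 at both ages and Chrdl1, Fstl3 and the Nodal antagonist Lefty2 in the young list only, whereas Cer1, Lefty1, Fstl1, Dand5, Twsg1, Sost and Dcn had it in neither. H3K4me3 at both ages was found at the ubiquitin ligases Smurf1 and Smurf2, the corepressors Tgif1 and Skil, the co-receptor gene Eng, the BMP target Id2, Hipk2 and Zeb2. The Id genes are targets of BMP signalling that encode inhibitors of helix-loop-helix factors. Of these, Id2, Id3 and Id4 had H3K27me3 in the young list and none in the aged list, and Id1 had it in neither. Id1, Id2, Id3 and Id4 all had H2AK119ub1 in the aged list, and Id2 had it in the young list as well.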

How the data were processed

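ChIP-seq peak lists of young (10-week) and aged (20-month) HSCs were analysed, 1 pooled list for each of 3 marks and each age. Reads of 60 bases had been aligned to mm10 with Bowtie2, and MACS2 2.2.6 is named in the submitters' processing notes. The authors deposited narrow peaks for H3K4me3 and broad peaks for H3K27me3 and H2AK119ub1. Each deposited row holds the fold enrichment, a linear ratio over background, and the −log10 p-value and −log10 q-value as the peak caller wrote them; call thresholds, and how the libraries were pooled, are not given in the sources used here. For broad peaks these values are means over the region.

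Start sites were those of protein-coding transcripts in GENCODE M21 basic (41438 sites), which uses the build of the lists. Peaks were joined to promoters, 1 kb either side, and to gene bodies by overlap of at least 1 bp, with Python 3.11.15, pandas 2.3.3, numpy 2.4.6 and pysam 0.24.0. Overlap and pileup code was tested on simulated data. The H3K4me3 pileup was sought among whole numbers from fold and −log10 p. For 100% of peaks the best whole number gave back the −log10 p within 0.01. CpG ratios came from the reference sequence.

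The 47 members and the other gene lists were chosen with earlier results of these data known. All members were accounted for by role. Positions are given for members with a mark at 1 age only and for those with H3K4me3 and H3K27me3 together, and peak length for the 5 with the most H3K27me3. Sequences follow the CpG ratio within 33 members held in the RefSeq promoter table, leaving out chromosome 18. No test of age was possible, so counts are set beside those over all 21851 genes. Alternatives were a promoter of 2 kb or 500 bp, the 5'-most start only, an overlap of 200 bp, a −log10 q-value of at least 2, equal numbers of peaks, and, added after the data had been seen, the comprehensive annotation. A few items of the gene lists and sequences are not reported here.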

Additional observations from a re-analysis of the deposited data

How the results depend on the processing

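Of the counts over the 47 genes, 65 recomputed values stayed within 1.5 times the reported one and 15 moved further. With promoters of 2 kb, young H2AK119ub1 was at 4 promoters and the pair of H3K4me3 and H3K27me3 at 2 aged promoters. With 500 bp, young H2AK119ub1 was at 1 and that pair at 2 young promoters. With the 5'-most start alone, young H2AK119ub1 was at 1. With peaks below a −log10 q-value of 2 left out, aged H3K27me3 was at 6 promoters and H2AK119ub1 at 0 young and 5 aged promoters. Over all genes these promoter shares were 3.28% for aged H3K27me3, and 0.677% and 5.82% for young and aged H2AK119ub1. In the same setting H2AK119ub1 was over promoter or gene body at 0 young and 12 aged members. With equal numbers of peaks, young H3K4me3 was at 9 promoters (10 with gene bodies), aged H2AK119ub1 at 2 (8 with gene bodies), and the pair at 1 young promoter. The fewer peaks left in these settings are part of their construction; any further cause was not tested. An overlap of 200 bp and the comprehensive annotation moved no count by over 1.5 times.

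No paired analysis was possible because the libraries of a mark and age had been merged into a single list, and no result comes from a test. For the same reason no replicate could be left out. For H3K4me3 the summits held a median of 20 reads in young and 19 in aged HSCs; read depth is not recorded for the broad lists. Median −log10 q-values of the broad lists ran from 1.6 to 1.96.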
